A study of Mus musculus with 2 samples.

Results

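Klf2 and Klf4 are Krüppel-like zinc finger transcription factors of endothelium, and their levels were described here by library and by endothelial cluster. They were taken as the rows whose gene symbol is Klf2 or Klf4, which gave 2 of the 31053 genes listed. Both rows were present in both libraries, and both passed the floor of 20 CPM (UMIs per 1000000 UMIs) that 7478 genes reached in endothelial-like cells. The values came from a study of liver endothelial cells in mice with the sph allele of Gimap5, an immune-associated GTPase. The cells were sorted as DAPI-, CD45- and CD31+ and therefore as live, non-leukocyte endothelium, from adult mice of C57BL/6 background. There was 1 heterozygous mouse (Gimap5sph/+, called sph/+ below) and 1 homozygous mouse (Gimap5sph/sph, called sph/sph below), so both animals carried the allele and no wild-type animal was included. Each mouse gave 1 droplet library made with the 10x Genomics 3′ v3 kit, so that the effect of genotype cannot be told apart from that of the library.

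Flowing blood drags on the vessel wall, and endothelial cells read this shear through junctional and membrane proteins such as Pecam1, the VEGF receptors, Plxnd1 and the channel Piezo1. The signal runs through the kinases MEKK3 (Map3k3), MEK5 (Map2k5) and ERK5 (Mapk7) to MEF2 factors, which switch on Klf2 and Klf4. The pair in turn raises vasodilator and anticoagulant genes such as Nos3 and Thbd and lowers constrictor and adhesion genes such as Edn1 and Vcam1. In liver sinusoids, whose lining is thin and fenestrated, both genes are known to be active. Immediate early genes (Fos, Jun, Egr1) and heat shock genes (Hspa1a, Hspa1b) can rise while tissue is digested and sorted, and they serve here as handling genes.

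Klf2 (ENSMUSG00000055148) lies at chr8:72319033-72321656 on the plus strand of GRCm38 and has 3 exons. Klf4 (ENSMUSG00000003032) lies at chr4:55527143-55532466 on the minus strand and has 5 exons in its first listed transcript. The stretches just upstream of each start are shown because the MEF2 arm of the shear route acts at these promoters. They are RefSeq sequences of GRCm38.p6, read 5′ to 3′ on the gene's strand, at chr8:72318812-72319032 for Klf2 and chr4:55532476-55532725 for Klf4. Capitals mark the MEF2 consensus match in Klf2 and the GGGCGG boxes, read on either strand, in Klf4.
Klf2: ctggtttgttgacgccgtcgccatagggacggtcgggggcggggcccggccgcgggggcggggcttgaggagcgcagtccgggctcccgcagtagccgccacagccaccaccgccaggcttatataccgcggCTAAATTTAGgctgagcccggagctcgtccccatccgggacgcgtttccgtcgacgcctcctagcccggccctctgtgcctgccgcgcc
Klf4: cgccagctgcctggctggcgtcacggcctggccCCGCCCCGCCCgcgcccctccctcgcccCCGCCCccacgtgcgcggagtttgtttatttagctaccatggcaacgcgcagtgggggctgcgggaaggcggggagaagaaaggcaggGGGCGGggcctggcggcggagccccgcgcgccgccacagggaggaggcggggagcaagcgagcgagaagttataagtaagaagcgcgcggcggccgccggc

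The Klf2 window of 221 bases held 1 match to the MEF2 consensus, 108 bases before the RefSeq start. Of 32851 promoter windows of that length, 2.61% held such a match. The Klf4 window of 250 bases held none, against 2.92% of windows of its length. GGGCGG on either strand matched at 2 places in Klf2, where 28.7% of windows held it, and at 4 places in Klf4, where 32.7% did; the first pair in Klf4 shared 1 base. CACCC, the letters KLF proteins are known to prefer, and TGANTCA and GAANNTTC, the AP-1 and heat shock element letters, matched in neither window on either strand. CACCC occurred in 48% and 52% of windows of these lengths, TGANTCA in 6.13% and 6.75%, and GAANNTTC in 5.76% and 6.69%. A match is a description of letters only.

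The libraries held 13136 barcodes and 64460283 UMIs in sph/+ and 16386 barcodes and 68983780 UMIs in sph/sph. After filters on depth, mitochondrial share and doublets 10777 and 11220 barcodes were kept, of which 9801 and 10664 fell in endothelial-like clusters, at medians of 4318 and 3925.5 UMIs. Pecam1, which encodes the sorted CD31, stood at 726 and 1049 CPM in them. Of 13 pan-endothelial markers, 11 or 12 were detected in each of these clusters, but 11 to 13 were also detected in every cluster outside this set except the hepatocyte-led one, with 2. The mitochondrial limit removed 403 barcodes in sph/+ and 1561 in sph/sph. Gimap5 stood at 104 CPM in both libraries, which is no check of the genotype label. Clusters named LSEC-like, from markers of liver sinusoidal endothelial cells, made up 97.2% of sph/+ endothelial-like cells and 2 cells of sph/sph. Continuous vascular-like clusters made up 73.8% of sph/sph, beside 10.4% lymphatic-like cells, 8.86% unnamed and 6.94% cycling. Cluster names were rebuilt from marker lists and could differ from those of the study. Markers of stellate cells summed to 46.0 CPM in sph/+ against 313 in sph/sph endothelial-like cells, erythroid markers to 25.2 and 134 CPM, mesothelial markers to 7.11 and 181 CPM, and hepatocyte markers to 102 and 144 CPM. Kupffer cell markers summed to 25.1 and 8.25 CPM, cholangiocyte markers to 9.44 and 7.18 CPM, and lymphocyte markers to 0.201 and 0.331 CPM. Of these markers, Alb and Car2 reached 20 CPM in sph/+ and Alb, Apoa2, Dcn, Hba-a1, Hbb-bs, Gpm6a and Wt1 did in sph/sph. The lymphocyte markers Cd3e, Cd3g and Ms4a1 and the mesothelial marker Msln were at 0 UMIs in both libraries. Dcn was among the leading genes of the lymphatic-like cluster and Wt1 among those of cluster 3. The part of other cell types in the results was not tested.

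Both genes were lower in sph/sph than in sph/+ over all endothelial-like cells. Klf2 stood at 1206 CPM in sph/+ (95% Poisson interval 1196–1216, 53933 UMIs) and 909 CPM in sph/sph (901–918, 46630 UMIs). Klf4 stood at 294 CPM (289–299, 13148 UMIs) and 198 CPM (194–201, 10131 UMIs). The intervals cover counting error only and did not overlap for either gene. The ratio of sph/sph to sph/+ was 0.754 (0.745–0.763) for Klf2, a log2 ratio of -0.41, and 0.672 (0.655–0.690) for Klf4, a log2 ratio of -0.57. Neither was past 1.5-fold, a size that 21.4% of the measured genes reached downward and 18.2% reached upward. With 1 mouse of each genotype there was no test, and the values describe these libraries. Klf4 was 1.49-fold lower and so lay just inside that fold. It passed it with log2 ratios of -0.71 when each cell was weighted equally, -0.61 when cells were limited to 8% mitochondrial UMIs and -0.73 without lymphatic-like cells.

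Within sph/+, both genes were highest in the clusters with vein-side genes. Klf2 stood at 2028 CPM (1886–2177) in the 74 sph/+ cells of cluster 17. Over its 199 cells of both libraries, that cluster was led by Rspo3, Wnt9b and Vwf, and 7 of 8 central vein markers were detected. Its detected markers put it in the continuous vascular-like class, although its 10 leading genes hold 1 continuous marker and 2 each of the central LSEC and central vein lists. Klf2 stood at 1658 CPM (1632–1685) in cluster 4, LSEC-like cells led by Wnt2, Kit and Rspo3. It stood at 1369 CPM (1337–1402) in cluster 7, LSEC-like cells led by Adgrg6. Wnt2, Wnt9b and Rspo3 are Wnt signals known to be made beside the central vein, and Adgrg6 is an adhesion receptor that sits in the portal marker list used here. The next 4 clusters had overlapping intervals, namely cluster 0 led by Msr1 and Ntn4 (1054 CPM), cluster 9 led by Ifit1 and other interferon-response genes (1027 CPM), the cycling cluster 21 (1018 CPM) and cluster 2 led by Stab2 and Gatm (1018 CPM). The lowest was cluster 22, 74 unnamed cells led by replication genes such as Mcm5, at 830 CPM (759–906). The highest level was 2.44 times the lowest.

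Klf4 followed a similar order in sph/+ over a wider range. It stood at 524 CPM (453–602) in cluster 17 and 483 CPM (469–498) in cluster 4, which overlapped, and at 319 CPM (303–334) in cluster 7. The LSEC-like clusters 2, 0 and 9 stood at 251 CPM (242–261), 232 CPM (224–241) and 201 CPM (187–215). Clusters 22 and 21, with replication and mitosis genes in the lead, were lowest at 149 CPM (120–183) and 120 CPM (97.0–146), with overlapping intervals. The highest level was 4.38 times the lowest.

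Cluster 4 differed from the other LSEC-like cells of its library in both genes. The ratio was 1.53 (1.5–1.56) for Klf2 and 1.95 (1.88–2.03) for Klf4, and 3.43% of genes were at least 1.5-fold higher in this comparison. Thbd, the anticoagulant thrombomodulin, was 4.67-fold higher there (4.47–4.88), and Fos was 1.11-fold higher. Unlike Klf2 and Klf4, Thbd, Nos3 and Edn1 were open to be among the genes that made the clusters, and Thbd was in the marker list for central LSECs. In cluster 7 the ratio was 1.16 for Klf2 and 1.08 for Klf4, while Edn1, the constrictor endothelin-1, was 63.5-fold higher (52.2–77.8) and Fos 1.5-fold higher. The interferon-response cluster 9 had Klf4 at 0.652 of the other LSEC-like cells (0.607–0.699) and Klf2 at 0.838. Only Klf4 was past 1.5-fold there, where 1% of genes were that much lower.

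**Figure D1:**
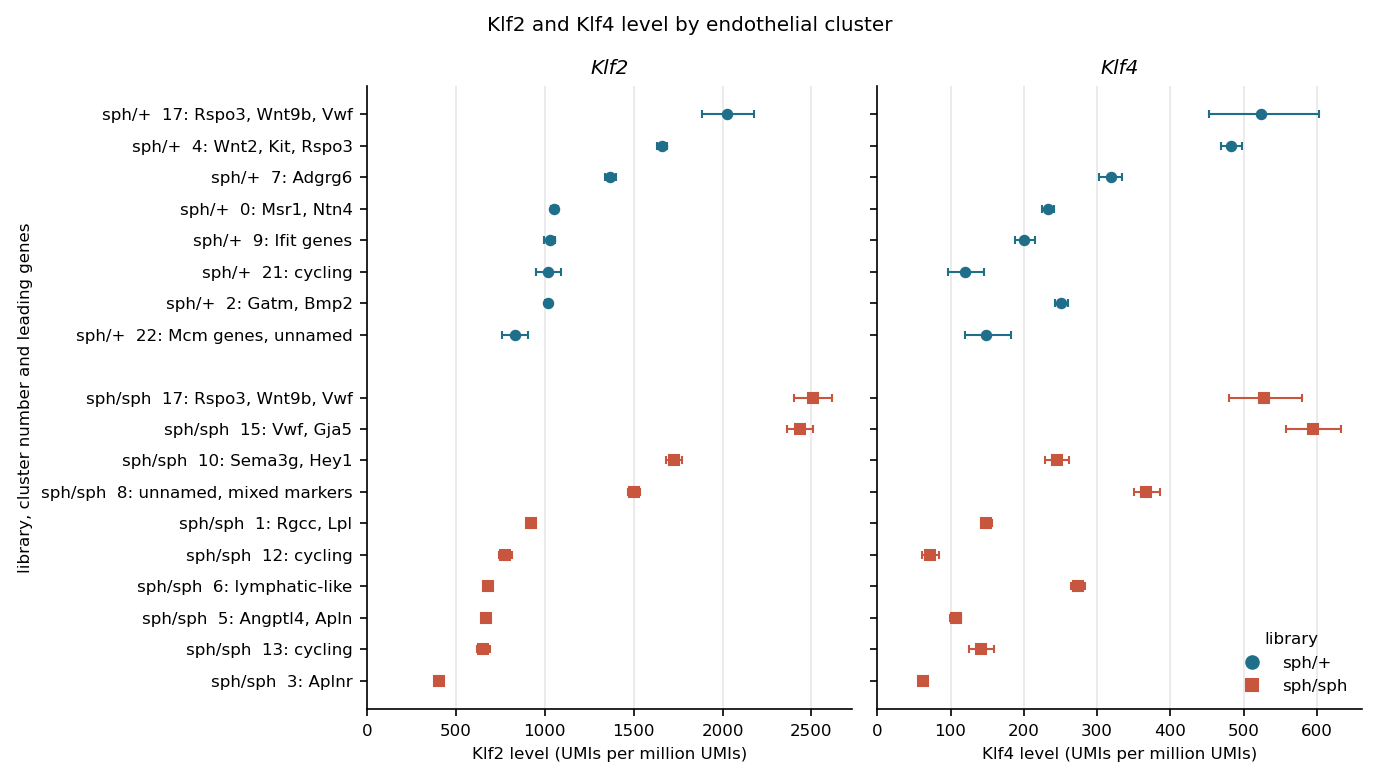
Levels of Klf2 and Klf4 (CPM, linear axes from 0) in each endothelial cluster of at least 50 cells, by library, with 95% exact Poisson intervals that cover counting error only. In sph/sph, Klf2 ran from 403 in cluster 3 to 2507 in cluster 17, a wider range than the 830 to 2028 of sph/+.

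In sph/sph the clusters lay further apart. Klf2 stood at 2507 CPM (2400–2617) in cluster 17, here 125 cells, and at 2435 CPM (2361–2512) in cluster 15, 277 continuous vascular-like cells led by Vwf and the arterial connexin gene Gja5. These were followed by cluster 10, led by Cxcl12, Sema3g and Hey1, with 1725 CPM (1681–1770). Hey1 and Sema3g are known arterial endothelial genes. The unnamed cluster 8, which had 7 LSEC and 8 continuous markers detected, stood at 1502 CPM (1467–1538). Cluster 1, led by Rgcc and Lpl, stood at 922 CPM (903–941), and the cycling cluster 12 at 777 CPM (741–815). The lymphatic-like cluster 6 at 679 CPM, cluster 5 led by Angptl4 and Apln at 671 CPM and the cycling cluster 13 at 654 CPM had overlapping intervals. Cluster 3, 2484 cells led by the apelin receptor gene Aplnr, was lowest at 403 CPM (390–417). The highest level was 6.21 times the lowest.

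Klf4 in sph/sph was highest in clusters 15 and 17, at 594 CPM (558–633) and 528 CPM (479–580), with overlapping intervals. The unnamed cluster 8 came next with 367 CPM (350–385). The lymphatic-like cluster 6 stood at 274 CPM (264–284) and so above cluster 10, at 245 CPM (228–262), whereas for Klf2 cluster 10 was the higher of the pair. Clusters 1 and 13 overlapped at 149 and 142 CPM, and cluster 5 stood at 107 CPM (99.7–115). Cluster 12 at 72.3 CPM (61.5–84.5) and cluster 3 at 61.9 CPM (56.7–67.3) overlapped at the low end. The highest level was 9.61 times the lowest.

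The Aplnr-led cluster 3 had low levels of both genes against the other continuous vascular-like cells of sph/sph. The ratio was 0.359 (0.346–0.372) for Klf2 and 0.317 (0.289–0.347) for Klf4, and 4.79% of genes were at least 1.5-fold lower in this comparison. Thbd was at 0.306 of the other cells, Fos at 0.863 and Hspa1a at 2.60. Hspa1a was among the 10 leading genes of cluster 3 although the heat shock list was kept out of the clustering, and its part in the lower Klf2 was not tested. In cluster 5 Klf4 was at 0.614 (0.568–0.663), past 1.5-fold, and Klf2 at 0.667, just short of it, with 5.01% of genes at least 1.5-fold lower.

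Cluster 10, with 3 arterial markers among its 10 leading genes, had Klf2 at 2.07 times the other continuous vascular-like cells (2.01–2.13) and Klf4 at 1.65 times (1.53–1.78), where 4.95% of genes were at least 1.5-fold higher. Fos was 2.23-fold higher in the same cells, and its part was not tested. In the Vwf-led cluster 15 the ratios were 2.89 (2.79–2.98) for Klf2 and 4.42 (4.12–4.74) for Klf4, but 17.8% of genes were at least 1.5-fold higher there. Thbd was 6.77-fold and Edn1 5.34-fold higher in cluster 15, so a gene that Klf2 is known to raise and one it is known to lower were both high in these cells. Hspa1a was at 0.322 of the other cells. In cluster 17 of sph/sph the ratios were 2.83 (2.71–2.96) for Klf2 and 3.55 (3.21–3.92) for Klf4, with 18.4% of genes at least 1.5-fold higher.

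The UMIs of the pair were spread over different cells in the 2 libraries. LSEC-like cells held 95.8% of the Klf2 UMIs and 96.8% of the Klf4 UMIs of sph/+ endothelial-like cells, at 1206 and 297 CPM. Continuous vascular-like cells held 62.8% and 49.4% in sph/sph, at 927 and 159 CPM. The lymphatic-like cluster 6 gave 16.1% of the Klf2 UMIs and 29.8% of the Klf4 UMIs of sph/sph from 10.4% of its cells. Cluster 6 had 9 continuous and 5 LSEC markers detected beside 5 lymphatic ones, so its values are those of a cluster with mixed markers. Its median of 9750 UMIs was the deepest among the named endothelial clusters of the library. The unnamed cluster 8 gave 14.6% and 16.5%, and cycling cells 6.49% and 4.25%.

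Of the populations with cells of both libraries, cluster 17 is the one compared as a single cluster, and Klf2 was higher in sph/sph there but lower in sph/sph cycling cells. The continuous vascular-like class gave ratios of 0.479 for Klf2 and 0.345 for Klf4, but most of its 95 cells in sph/+ were cluster 17, and its 7871 cells in sph/sph were mostly other clusters. The unnamed cells gave 1.81 for Klf2 and 2.47 for Klf4, with the 74 cells of cluster 22 set against the 945 of cluster 8, which is a comparison of different clusters. In cluster 17 Klf2 was 1.24-fold higher in sph/sph (1.14–1.35, 759 UMIs against 2071), and Klf4 was level with a ratio of 1.01 (0.850–1.20, 196 UMIs against 436). Neither passed 1.5-fold, which 21.4% of genes did upward and 25.1% downward in this comparison. In the same cells Fos was 1.53-fold, Jun 1.32-fold, Junb 2.17-fold and Egr1 2.68-fold higher in sph/sph. Atf3, a stress-induced factor, had 1 UMI in the sph/+ cells and 189 in the sph/sph cells, and Hspa1a had 2 and 101. Handling genes thus moved with Klf2 in cluster 17, and their part was not tested. Thbd was 1.95-fold higher (1.71–2.24), Nos3, the endothelial nitric oxide synthase, 1.55-fold higher (1.15–2.11) and Klf6, an injury-induced KLF, 2.67-fold higher, while Edn1 was lower at 217 CPM against 700, a ratio of 0.310. In cycling cells, which were mostly cluster 21 in sph/+ and clusters 12 and 13 in sph/sph, Klf2 stood at 1017 CPM and 738 CPM, a ratio of 0.726. Klf4 stood at 119 and 105 CPM, with a ratio of 0.881 whose interval (0.705–1.11) crossed 1. Fos was at 0.53 in this class.

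Shares of cells with a UMI were compared after every cell was thinned to 2000 UMIs, which left out 414 shallower cells of sph/+ and 887 of sph/sph. A Klf2 UMI was seen in 81.7% of 9387 sph/+ cells (95% exact binomial interval 80.9–82.4) and 55.8% of 9777 sph/sph cells (54.8–56.8). Klf4 was seen in 36.8% (35.9–37.8) and 21.4% (20.6–22.3). Without thinning the shares were 92.5% and 67.1% for Klf2 and 54.7% and 33.5% for Klf4. In hepatocyte-led cells of sph/sph, which should lack both genes and had a median of 1778 UMIs, Klf2 was seen in 11.1% of 45 cells (3.71–24.1) and Klf4 in 2.22% (0.0562–11.8). Every endothelial cluster lay above that Klf2 share, the lowest being cluster 3 at 39.7%. For Klf4, cluster 3 at 9.34% (8.12–10.7) and the cycling cluster 12 at 9.45% lay inside the interval of the hepatocyte-led cells. At 1000 UMIs, with 118 hepatocyte-led cells, Klf4 was seen in 0.847% of them (upper bound 4.63) and in 5.68% of cluster 3 (4.80–6.66). Clusters outside the endothelial-like set were not uniformly low, since Klf2 was seen in 81.7% of stellate-marked and 77.5% of Kupffer-marked barcodes of sph/+, close to the share in its endothelial-like cells, and in 29.7% of cholangiocyte-marked barcodes. These barcodes carried endothelial genes as well, with Stab2 at 1282 CPM in the stellate-marked cluster 11.

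Over all endothelial-like cells pooled, Klf2 was more unequal between cells in sph/sph. Pooling mixes spread within clusters with differences between clusters. The highest Klf2 cluster was 6.21 times the lowest in sph/sph and 2.44 times in sph/+. At 2000 UMIs per cell, 18.3% of sph/+ cells and 44.2% of sph/sph cells had no Klf2 UMI. At the other end, 1.38% of sph/+ cells (130) and 2.12% of sph/sph cells (207) had 10 or more. The variance over the mean of the thinned Klf2 counts was 2.11 in sph/+ and 3.8 in sph/sph; that of Klf4 was 1.65 and 2.04. Klf4 was seen more often in cells that also held Klf2. It was found in 39.7% of sph/+ cells with a Klf2 UMI and 23.9% of those without, and in 30.5% and 10.0% in sph/sph. The share with Klf2 was 93.8% of the 64 thinned cells of cluster 17 in sph/+, 92.5% in cluster 15, 90.7% in cluster 4 and 87.6% in cluster 17 of sph/sph, the same clusters that led the order of levels. In the lymphatic-like cluster 6 the shares lay close together, 43.8% for Klf2 and 37.9% for Klf4, whereas in cluster 10 they were 79.9% and 28.5%.

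**Figure D2:**
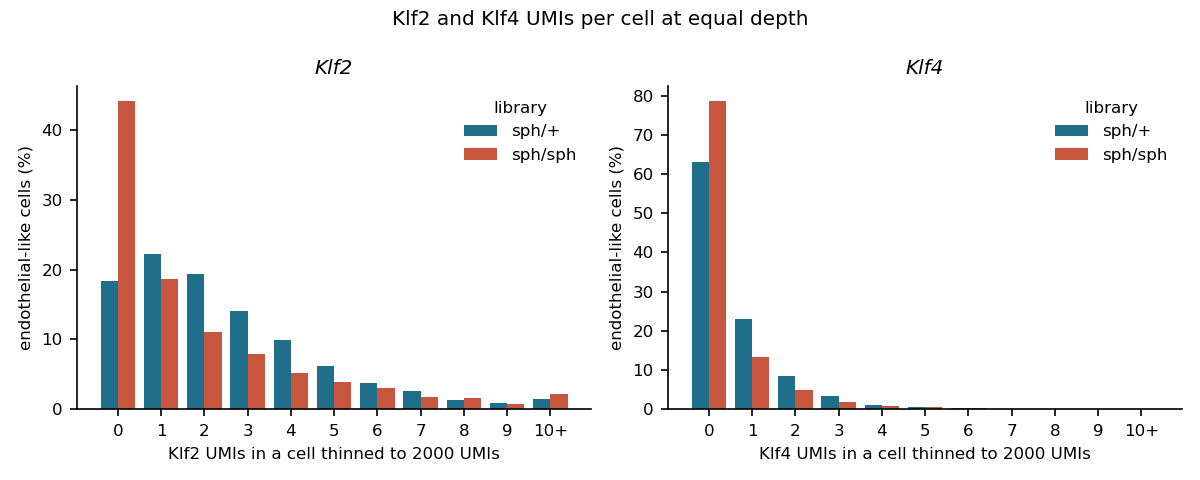
Percent of endothelial-like cells by number of Klf2 or Klf4 UMIs per cell, with every cell thinned to 2000 UMIs, by library. Cells with no Klf2 UMI made up 18.3% of sph/+ and 44.2% of sph/sph, while the share with 10 or more was 1.38% and 2.12%.

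The handling genes differed between the libraries to different degrees. Fos, the immediate early AP-1 subunit, stood at 452 CPM in sph/+ against 425 in sph/sph, Junb at 362 and 441 CPM, Egr1 at 430 and 465 CPM and Jun at 427 and 668 CPM. Atf3 stood at 5.17 and 68.8 CPM. Hspa1a, the stress-inducible Hsp70, stood at 11.4 and 124 CPM, a ratio of 10.9 (9.94–11.9), and its neighbour Hspa1b at 5.93 and 44.0 CPM. The near-identical Hspa1a and Hspa1b can share reads, so their split is uncertain. The immediate early list made up 0.420% of endothelial UMIs in sph/+ and 0.514% in sph/sph, and the heat shock list 0.328% and 0.507%. Klf2 and Klf4, which are themselves counted as quickly induced genes in many tissues, were left out of both lists and were lower in the library with the higher list totals.

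Over clusters, Fos was partly parallel to Klf2. The correlation of log2(CPM + 20) was 0.85 over the 8 clusters of sph/+ and 0.56 over the 10 of sph/sph, as a description over points that share a library and differ in depth. For Klf4 and Fos it was 0.78 and 0.41. Other immediate early genes differed from Fos. With Klf2 the correlation was 0.77 and 0.17 for Jun and 0.67 and 0.39 for Junb. It was -0.32 and -0.15 for Egr1 and -0.54 and 0.13 for Atf3. With Klf4 it was 0.63 and -0.08 for Jun, 0.81 and 0.40 for Junb, -0.10 and -0.30 for Egr1 and -0.50 and -0.08 for Atf3. Cluster 10 had the highest Fos of any endothelial cluster, 1023 CPM, with Klf2 at 1725 CPM, whereas cluster 8 had Klf2 at 1502 CPM with Fos at 216 CPM. Cluster 3 had Fos at 465 CPM, above that of cluster 1 at 428 CPM, with less than that cluster's Klf2. In the cholangiocyte-marked cluster 18 Fos stood at 2405 CPM and Atf3 at 1799 CPM, with Klf2 at 236 CPM and Klf4 at 59.8 CPM. Among endothelial clusters Hspa1a was highest in cluster 3, at 275 CPM, and its correlation over clusters with Klf2 was -0.07 over sph/+ clusters and -0.52 over sph/sph clusters, and with Klf4 -0.05 and -0.56.

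**Figure D3:**
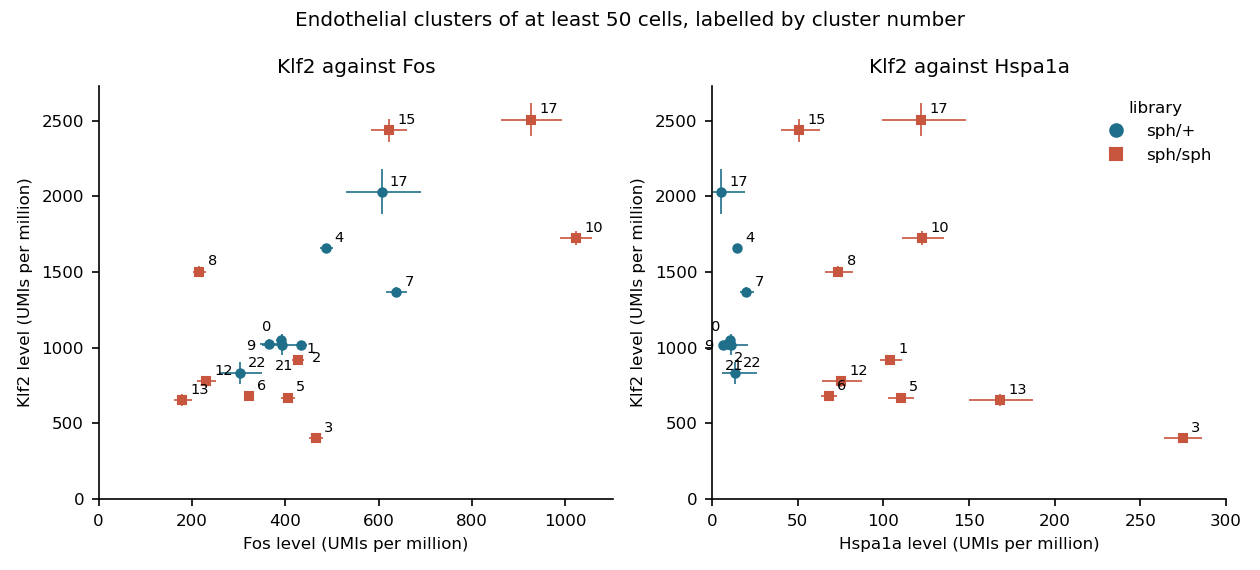
Klf2 level against Fos (left) and Hspa1a (right) in each endothelial cluster of at least 50 cells (CPM, linear axes; bars are 95% exact Poisson intervals; labels are cluster numbers; the points of clusters 0, 2, 9 and 21 of sph/+ lie almost on top of each other near a Klf2 level of 1000). Cluster 8 combined Klf2 at 1502 with Fos at 216, and cluster 3 combined Klf2 at 403 with Hspa1a at 275.

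Between cells of one library, both genes were higher where immediate early UMIs were higher. Cells thinned to 2000 UMIs were split into 4 bins by their summed immediate early UMIs, taken over both libraries, with 0–4 in the lowest and 14 or more in the highest bin. Klf2 stood at 885, 1149, 1396 and 1848 CPM from the lowest to the highest bin of sph/+, and at 651, 831, 900 and 1171 CPM in sph/sph. Klf4 stood at 177, 254, 354 and 517 CPM in sph/+, and at 120, 167, 195 and 225 CPM in sph/sph. Each bin of each library was thus above the one before it for both genes. The highest bin over the lowest was 2.09 (2.01–2.17) for Klf2 and 2.93 (2.70–3.18) for Klf4 in sph/+, where 2.81% of genes were at least 1.5-fold higher. It was 1.80 (1.72–1.88) and 1.88 (1.70–2.09) in sph/sph, where 3.28% were. A bin is a range of a score and not a cell type, and the bins held between 1528 and 3112 cells of a library.

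The relation to summed immediate early UMIs was also seen between cells within clusters. Of the 14 clusters with at least 200 thinned cells, Klf2 was higher in the highest bin in 14, with every interval above 1, and Klf4 in 13, of which 11 had an interval above 1. For Klf2 the ratio ran from 1.24 (1.07–1.44) in cluster 5 to 4.71 (4.07–5.46) in the lymphatic-like cluster 6, where Klf2 stood at 339 CPM in the lowest and 1598 CPM in the highest bin. For Klf4 it ran from 0.965 (0.637–1.48) in cluster 5 to 3.94 (3.04–5.14) in cluster 8, and the intervals of clusters 5, 12 and 15 crossed 1. In cluster 3, with its low Klf2, the ratio was 1.58 for Klf2 and 1.80 for Klf4.

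Heat shock UMIs showed no such relation over the whole library. Klf2 stood at 1264, 1222, 1219 and 1252 CPM over the bins of summed heat shock UMIs in sph/+, and at 903, 929, 877 and 894 CPM in sph/sph. The highest bin over the lowest was 0.991 (0.946–1.04) and 0.990 (0.946–1.04) for Klf2, and 1.02 (0.927–1.12) and 0.932 (0.841–1.03) for Klf4. Every one of these intervals held 1. By cluster the Klf2 ratio ran from 0.728 to 1.41, with 6 of 14 intervals above 1 and 1 below. Those 6 were all clusters of sph/sph, namely 3, 5, 6, 8, 10 and 15, and the 1 below was cluster 0 of sph/+. The flat ratio over all sph/sph cells thus did not hold within each of its clusters. For Klf4 1 of 14 lay above and 1 below.

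**Figure D4:**
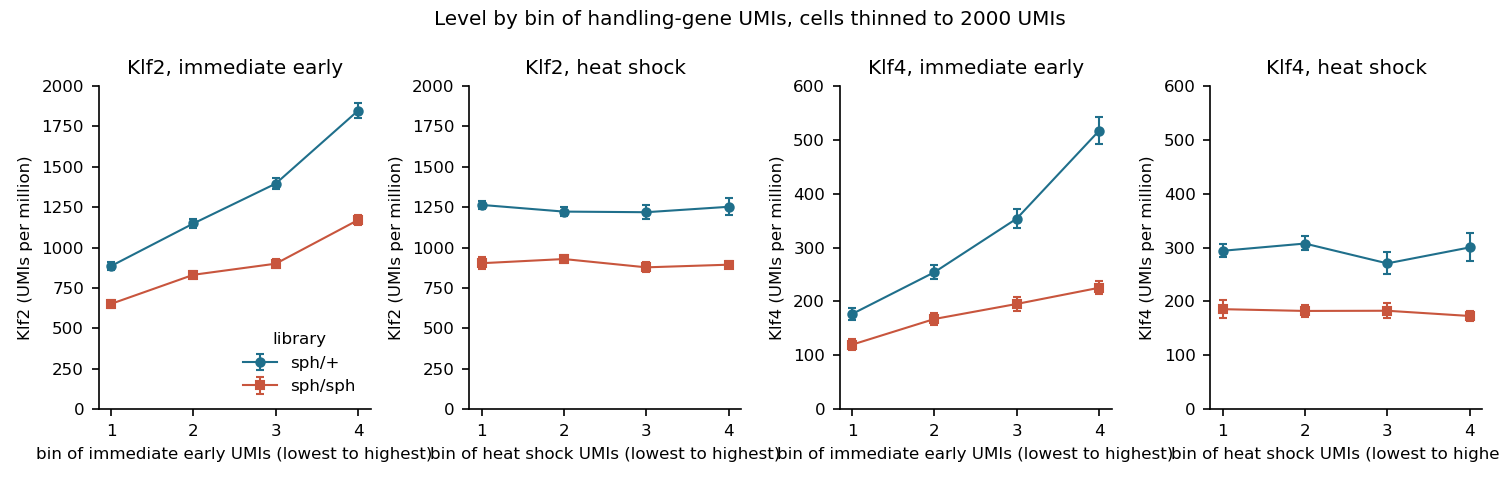
Klf2 and Klf4 levels (CPM, linear axes from 0) in bins of cells ordered by summed immediate early UMIs or summed heat shock UMIs at 2000 UMIs per cell, by library, with 95% exact Poisson intervals. Klf2 climbed from 885 to 1848 in sph/+ and from 651 to 1171 in sph/sph over the immediate early bins, and stayed between 1219 and 1264 and between 877 and 929 over the heat shock bins.

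Fos alone gave a smaller contrast than the summed immediate early list over each library, but the splits are unlike. The Fos split used all thinned cells (4417 with and 4970 without a Fos UMI in sph/+), whereas the list contrast left out the middle bins. Cells with a Fos UMI had 1.25 times the Klf2 (1.22–1.28) and 1.38 times the Klf4 (1.31–1.46) of cells without one in sph/+, and 1.42 times (1.38–1.47) and 1.5 times (1.41–1.61) in sph/sph. The Klf2 contrast by Fos was above 1 in 14 of 14 clusters, with intervals above 1 in all 14, and reached 2.17 in cluster 6. For Klf4 the interval was above 1 in 10 of 14. Cells with an Hspa1a UMI, 218 in sph/+ and 831 in sph/sph, had 1.10 times (1.02–1.20) and 1.01 times (0.961–1.07) the Klf2 of the others, and 1.12 times (0.940–1.32) and 0.938 times (0.828–1.06) the Klf4. By cluster the Hspa1a contrast went both ways, with Klf2 at 1.54 in cluster 3 and 1.91 in cluster 6 but 0.822 in cluster 8. Of 14 clusters, 3 had a Klf2 interval above 1 and 2 below 1.

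With all endothelial-like cells pooled, both genes were lower in sph/sph in each group of cells made by the handling genes. Within the bins of immediate early UMIs, sph/sph over sph/+ was 0.735, 0.724, 0.645 and 0.634 for Klf2 and 0.677, 0.658, 0.552 and 0.436 for Klf4, from the lowest to the highest bin. Within heat shock bins it lay between 0.714 and 0.760 for Klf2 and between 0.576 and 0.675 for Klf4. In cells without a Fos UMI it was 0.701 and 0.601, and in cells without an Hspa1a UMI 0.727 and 0.609. Over these 12 groups of cells the interval lay below 1 in all 12 for both genes. The groups are overlapping splits of the same cells and so are not separate comparisons. The make-up of the libraries differed in each of these groups as it did over all cells. In cluster 17, which had cells of both libraries, the ratios without bins were 1.24 for Klf2 and 1.01 for Klf4. The part of handling in the difference between the libraries was not tested.

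Over all cells of a class, each gene was the closest correlate of the other, while within the sph/+ clusters Dusp1 was level with Klf4 for Klf2. Pearson r of log-transformed thinned counts between Klf2 and Klf4 was 0.224 over 9130 LSEC-like cells of sph/+, the highest among 7444 genes, and 0.387 over 7108 continuous vascular-like cells of sph/sph, the highest among 7469. These values are descriptions over cells that share a library, and in counts this sparse a weak r is no finding. In sph/+ the next genes for Klf2 were Thbd (0.187) and Dusp1 (0.184), an immediate early phosphatase, and Fos ranked 9 with 0.149. In sph/sph Ly6a (0.296) followed Klf4, Thbd had 0.267, and Fos ranked 68 with 0.143. For Klf4, Thbd was second to Klf2 in both libraries, with 0.181 and 0.265. Averaged within the clusters of these classes, r between the pair was 0.172 for sph/+ and 0.290 for sph/sph, against 0.135 and 0.0816 between Klf2 and Fos. In that average for sph/+, the immediate early gene Dusp1 ranked 1 for Klf2, with Klf4 at rank 2 (both 0.172), and Fos, Ier2 and Egr1 took ranks 3 to 5. For Klf4, Klf2 ranked 1 and Fos and Dusp1 followed, with 0.131 and 0.125. In sph/sph the pair stayed at rank 1 for each other, and Dusp1 ranked 6 for Klf2 with 0.164. Hspa1a had an r of 0.019 or less with either gene in both classes.

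By Pearson r of log2(CPM + 20) over the 8 clusters of sph/+, the genes whose levels were most like those of Klf2 were Alg1 (0.98), Mtg2 (0.97), Lztfl1 (0.96), Cbfa2t3 (0.96) and Ckb (0.96). Those most like Klf4 were Jund (0.98), Nos3 (0.98), Slc26a10 (0.98), Sltm (0.98) and Hyal2 (0.97). Jund, first for Klf4, is an AP-1 gene of the immediate early list. Over the 10 clusters of sph/sph the genes most like Klf2 were Syt7 (0.96), Ptprb (0.93), Slc43a3 (0.92), Bag5 (0.92) and Dusp22 (0.91), and those most like Klf4 were Emc4 (0.97), Ephx1 (0.97), Tspan7 (0.95), Fundc1 (0.95) and Vapb (0.95). No gene was in the lists of both libraries. Klf4 itself had an r of 0.91 with Klf2 in sph/+ and 0.87 in sph/sph, and Thbd had 0.91 and 0.88 with Klf2 and 0.88 and 0.92 with Klf4. So few points, all from 1 library each, give high values for many genes.

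Among genes that sense shear or carry its signal, receptors led the lower genes. Of 21 genes on this list 21 were measured, 0 were higher in sph/sph by 1.5-fold or more and 7 were lower by as much, beside the 18.2% and 21.4% of all measured genes, and the median log2 ratio was -0.11 beside -0.07 over all of them. The lower genes were led by P2rx4, an ATP-gated channel that responds to flow, at 115 CPM in sph/+ against 17.7 in sph/sph. They included the VEGF receptors Flt4 (802 and 254 CPM) and Kdr (2870 and 1387 CPM) and the semaphorin receptor Plxnd1 (737 and 397 CPM). Map3k3, the MEKK3 kinase, stood at 84.5 and 50.4 CPM, a log2 ratio of -0.73. Gnaq and Map3k2 were the other two, at log2 ratios of -0.63 and -0.61. Kdr and Flt4 are also markers of endothelial type, and the lists were put together with results of these data known. Piezo1, the stretch-gated channel, stood at 68.8 and 99.2 CPM, a log2 ratio of 0.52 that was short of 1.5-fold. The junction genes Pecam1 and Cdh5, at 0.53 and 0.49, and Map2k5, the MEK5 kinase, at -0.57, were also short of it. The count of 0 higher genes rose in some alternatives given at the end. P2rx4 reached 20 CPM only in sph/+ and so could not have been counted as higher. Mapk7, the ERK5 kinase, stood at 19.5 and 22.2 CPM, Mef2a at 319 and 334 CPM and Mef2c at 275 and 345 CPM, while Mef2d stood at 89.1 and 69.2 CPM.

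Known targets that Klf2, Klf4 or laminar flow raise went both ways. Of 18 genes 13 were measured, 6 were higher in sph/sph by 1.5-fold or more and 3 lower by as much, again beside 18.2% and 21.4% of all measured genes, with a median log2 ratio of 0.30. Without lymphatic-like cells 3 were higher in place of 6. Nos3 stood at 107 CPM in sph/+ against 123 in sph/sph, a ratio of 1.15 (1.11–1.19), and Thbd at 189 and 233 CPM, a ratio of 1.24 (1.20–1.27). Both were thus somewhat higher in the library with less Klf2 and Klf4. The largest differences were in Plat, the tissue plasminogen activator (4.38 and 128 CPM), and Adamts5, a matrix protease (4.0 and 80.9 CPM). Plat, Adamts5 and Nqo1 reached 20 CPM only in sph/sph and so could not have been counted as lower. Aqp1, a water channel, stood at 4794 and 534 CPM, and Tek, the angiopoietin receptor, at 469 and 102 CPM. Gja4, an arterial connexin, was the third lower gene at 322 and 113 CPM.

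Known targets that Klf2, Klf4 or laminar flow lower were all higher where measured, over all endothelial-like cells, whose make-up differed between the libraries. Of 15 genes 11 were measured, and 11 were higher in sph/sph by 1.5-fold or more, beside 18.2% of all measured genes, with a median log2 ratio of 2.11. Thbs1, Ccl2, Ace and Selp reached the floor of 20 CPM only in sph/sph, so they could not have been counted as lower. Edn1 stood at 31.4 CPM in sph/+ against 159 in sph/sph. In populations with cells of both libraries Edn1 went both ways. It was lower in sph/sph in cluster 17 (700 and 217 CPM) and in the continuous vascular-like class (701 and 193 CPM). It was higher there in cycling cells (0 and 68.3 CPM) and in unnamed cells (0 and 119 CPM). The widest differences were in Thbs1, an antiangiogenic matrix protein, with 19 UMIs and 9715 UMIs, and in Ccl2, a monocyte chemokine, at 1.97 and 168 CPM. Cyr61, a matricellular protein, followed at a log2 ratio of 3.48 and Angpt2, which antagonizes Tek, at 3.07. The adhesion genes Vcam1, Icam1 and Selp had log2 ratios of 2.02, 1.70 and 1.67, and the smallest ratio of the list was 0.81, of Ctgf. Across the clusters Edn1 did not run opposite to Klf2, since it was high in cluster 15 (838 CPM) and in cluster 17 of sph/+ (700 CPM), where Klf2 was also high. In the LSEC-like cluster 4, with Klf2 at 1658 CPM, Edn1 stood at 7.4 CPM.

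Within the KLF family, 8 of 17 genes were measured, 1 was higher in sph/sph by 1.5-fold or more and 4 lower by as much, beside 18.2% and 21.4% of all measured genes. The median log2 ratio was -0.61, and -0.86 over the 6 without Klf2 and Klf4. The higher one was Klf6, at 136 CPM in sph/+ against 420 in sph/sph. Klf9, a glucocorticoid-responsive member, stood at 254 and 75.3 CPM, Klf7 at 597 and 221 CPM and Klf3 at 351 and 167 CPM, and Klf10 had a log2 ratio of -0.66. Klf2 and Klf4 lay between these, and Klf13 at -0.38 was the closest to no difference. In the immediate early list, 16 of 18 were measured, with 7 higher and 4 lower, beside the same 18.2% and 21.4%, and a median of 0.44. The largest ratios there were those of Maff (4.54), Atf3 (3.5), Nr4a1 (2.06) and Btg2 (1.76). The heat shock list had 12 of 12 measured, 6 higher and 0 lower beside those shares with a median of 0.56. It was led by Hspa1a (3.33), Hspa1b (2.70), Hspb1 (2.40) and Hsp90aa1 (0.81). Maff, Atf3, Hspa1a and Hspa1b reached 20 CPM only in sph/sph and so could not have been counted as lower.

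**Figure D5:**
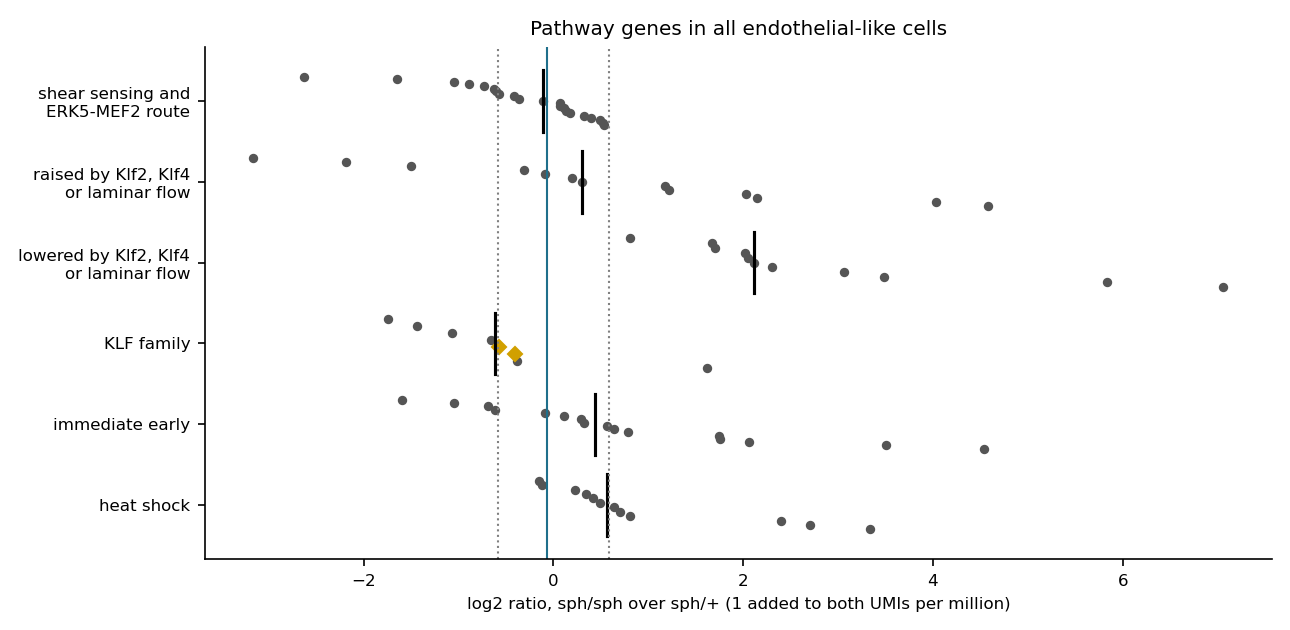
Log2 ratio of sph/sph over sph/+ (linear axis of log2 values; 1 CPM added to both levels) for each measured gene of 6 lists around Klf2 and Klf4, with the median of each list and the fold used for counting marked. The 11 measured genes known to be lowered by Klf2, Klf4 or laminar flow lay between 0.81 and 7.06, while Klf2 lay at -0.41 and Klf4 at -0.57. Among those 11, Thbs1, Ccl2, Ace and Selp reached 20 CPM only in sph/sph.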

How the data were processed

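The deposited values are raw UMI counts for 31053 genes in each barcode, not normalized. The authors ran Cell Ranger 3.0 on mm10 per the submitters' processing notes, and the file headers name software version 3.1.0; the annotation release and the strand setting are not given in the sources used here. A total of 30 barcodes occurred in both libraries, 17 of them among kept cells. Barcodes with at least 500 genes, 1000 UMIs and at most 15% mitochondrial UMIs were kept. Doublets were scored by comparison with simulated pairs; the automatic threshold called 0 and 1 barcodes, so the top scores at the expected rate were removed instead (12.0% in sph/+ and 13.7% in sph/sph of scored barcodes, ties included). Both libraries were clustered together (2000 variable genes without Klf2, Klf4 and the handling lists, 30 components, 15 neighbours, resolution 1.0) with scanpy 1.11.5, scikit-learn 1.9.0, igraph 0.11.9, leidenalg 0.10.2, numpy 2.4.6, scipy 1.17.1 and pandas 2.3.3 in Python 3.11.15, and drawn with matplotlib 3.10.9.

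Levels are summed UMIs per 1000000 UMIs (CPM). Fold counts use genes at 20 CPM or more in either group, with 1 CPM added, and genes past 1.5-fold. A gene that reaches 20 CPM in only 1 group can be counted only as higher in that group. Intervals are 95% exact Poisson or Clopper-Pearson intervals, those of ratios from a binomial split of both groups' UMIs, and cover counting error only. No test was made, since each genotype is 1 mouse. Scripts were tested on simulated counts. Named genes were Klf2, Klf4, fixed handling and target genes, the 4 largest ratios of each list and the 5 genes most like each member over clusters; others were named after their values were seen. The members and lists were chosen with earlier results of these data known. Gene positions are from GENCODE vM21 and promoter sequences from RefSeq, both on GRCm38. Alternatives covered scaling, filters, cell weights, clustering, thinning depth and bin limits.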

Additional observations from a re-analysis of the deposited data

Results flagged for a closer look

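Klf2 differed between the libraries in opposite directions in a cluster and in a class that had cells of both libraries. It was higher in sph/sph in cluster 17, with a ratio of 1.24, and lower in sph/sph in the cycling class, with a ratio of 0.726. The counting intervals lay on opposite sides of 1. The cycling class was mostly cluster 21 in sph/+, with 11 LSEC and 6 continuous markers detected. In sph/sph it was clusters 12 and 13, with 1 LSEC and 12 continuous markers detected in each. Its ratio thus compares different clusters. The continuous vascular-like class, at 0.479, and the unnamed cells, at 1.81, also lay on opposite sides, and mostly different clusters make them up in each library as well. With 1 mouse per genotype the difference between these ratios was not tested.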

How the results depend on the processing

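No paired analysis was possible because each genotype is 1 library and the labels carry no replicate numbers, and none could be left out for the same reason. Depth limits the values of small clusters and of Klf4 at 2000 UMIs per cell, and 1 mouse per genotype limits every comparison. No direction of a called value reversed under any alternative run; the cause of the moves below was not tested. The log2 ratio of Klf2 between libraries, -0.41, became -0.33 with median ratio scaling, -0.37 without mitochondrial, ribosomal and the 50 most abundant genes, -0.46 with cells weighted equally, -0.43 at 8% mitochondrial UMIs, -0.31 without lymphatic-like cells, -0.39 without cycling cells and -0.44 in the lowest immediate early bin. That of Klf4, -0.57, became -0.49, -0.54, -0.71, -0.61, -0.73 and -0.53 under the first 6 of these. In alternatives chosen after seeing the data it was -0.53 for Klf2 and -0.71 for Klf4 without the Vwf-led clusters, and -0.51 and -0.71 without the unnamed clusters. Higher genes of the shear route were 2 in place of 0 with median ratio scaling, with equal weights and without lymphatic-like cells, and higher genes of the raised targets were 3 in place of 6 without lymphatic-like cells.

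Cluster levels moved with the clustering, since other settings draw other clusters. Continuous vascular-like cells of sph/sph had Klf2 at 999, 959, 998 and 945 CPM and Klf4 at 185, 168, 185 and 166 CPM at resolution 0.5, at resolution 2.0, with the members among the variable genes and with each library alone. In that order the lowest Klf2 cluster of sph/sph stood at 679, 284, 355 and 242 CPM, and the lowest Klf4 cluster at 103, 16.9, 49.4 and 25.6 CPM. The highest Klf2 cluster of sph/sph stood at 1897 CPM at resolution 0.5, 2364 with the members and 2227 with each library alone, and the highest Klf4 cluster at 442 CPM at resolution 0.5. In sph/+ the lowest Klf2 cluster stood at 1018 CPM at resolution 0.5, 988 with the members and 754 with each library alone. The highest there stood at 2406 CPM for Klf2 and 750.3 CPM for Klf4 at resolution 2.0, and at 2184 and 660.0 CPM with each library alone.

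At 1000 and 4000 UMIs per cell Klf2 was seen in 63.2% and 93.1% of sph/+ cells and 41.8% and 66.6% of sph/sph cells, and Klf4 in 23.0% and 54.0% and in 13.5% and 36.0%. The immediate early contrast in sph/+ was 1.83 for Klf2 and 2.60 for Klf4 at 1000 UMIs, and 1.97 and 2.70 with bins set within each library. The heat shock contrast of Klf2 in sph/sph was 0.911 at 1000 UMIs. At that depth r in LSEC-like cells was 0.101 for Klf2 and Fos, -0.0022 for Klf2 and Hspa1a and 0.0781 for Klf4 and Fos, and r in continuous vascular-like cells 0.102 for Klf2 and Fos and 0.0727 for Klf4 and Fos. Averaged over clusters of that class, r of Klf2 was 0.0816 with Fos and -0.0182 with Hspa1a.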
